A study of Homo sapiens with 6 samples.

Results

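The genes described here are 10 feedback regulators and transcriptional outputs of the ERK pathway. They are the Sprouty genes *SPRY1*, *SPRY2* and *SPRY4*, the SPRED genes *SPRED1* and *SPRED2*, the dual-specificity phosphatase genes *DUSP4*, *DUSP5* and *DUSP6*, and the ETS transcription factor genes *ETV4* and *ETV5*. They were chosen by gene symbol, with earlier results of these data known, and each symbol matched exactly 1 of the 39739 gene rows. In this pathway, growth factor receptors activate RAS, which passes the signal through the kinases RAF and MEK to ERK. Active ERK induces early transcription factors and also genes whose products switch the pathway off again. Sprouty and SPRED proteins act upstream, at the level of receptors, RAS and RAF, and DUSP phosphatases remove the activating phosphates from ERK itself. *ETV4* and *ETV5* encode PEA3 family ETS factors, which act in the nucleus on the output side. Transcripts of these genes are often read as a gauge of ERK output.

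RNA-seq was carried out on HGC27, an established line from a gastric cancer, with 3 libraries per group, called HGC27-FN1 3′-UTR and HGC27-control. The HGC27-FN1 3′-UTR cells carried a lentiviral construct for stable overexpression of the 3′-untranslated region of *FN1*, the fibronectin gene, and were kept as a puromycin-resistant population. Whether the control cells carried an empty vector or were selected with puromycin is not given in the sources used here. Both groups were grown in RPMI-1640 medium with fetal bovine serum. The question was which transcripts differ once this 3′-UTR is overexpressed. Nothing in the labels or methods says that the libraries of a group came from separate cultures, so the p-values below measure the spread between libraries, which may be technical. In such bulk samples, a change in the number of cells that express a gene and a change in RNA per cell cannot be told apart.

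Expression is given as RPKM, the reads of a gene per kilobase of its exons, scaled to 1000000 assigned reads. The libraries held between 16357085 and 37037532 assigned reads, and a level of 3 reads, used as the detection floor, corresponds to between 0.081 and 0.1834 reads when scaled in this way. Differences were tested with limma on log2(RPKM + 0.1), a scale on which the fold change of a gene with low RPKM is understated. *FN1* itself was at 0.777, 0.745 and 0.819 RPKM in the FN1 3′-UTR libraries and at 0.543, 0.474 and 0.532 RPKM in the control libraries. All 3 values of the FN1 3′-UTR libraries were higher, with a log2 fold change of 0.52 (SE 0.11, limma, Benjamini-Hochberg adjusted p = 0.0292). That call was lost in each of the 6 fits that left out 1 library (limma, adjusted p from 0.0645 to 0.103). Of the cell type markers, the gastric and epithelial, the fibroblast and the endothelial lists were higher in sum in every FN1 3′-UTR library than in any control library. The summed level of the gastric and epithelial list was between 31.5 and 42.6 RPKM in the FN1 3′-UTR libraries and between 6.23 and 6.64 RPKM in the control libraries. Of its 12 tested genes, 9 were higher and none lower, where 5.62% of all tested genes were higher and 7.36% lower. For *KRT19*, which reached the level needed for testing only through the FN1 3′-UTR libraries, a difference was built into the filter. *CTSE* and *PLA2G2A* reached that level, among the control libraries, only in replicate 2 and replicate 3, respectively. The gastric markers *MUC5AC* and *TFF1* were close to absent, with *TFF1* listed at 0 in 5 of 6 libraries. Fibroblast markers summed to between 468 and 497 RPKM in the FN1 3′-UTR libraries and between 409 and 465 RPKM in the control libraries. Most of it was *VIM*, with a log2 fold change of 0.01. Of the 10 genes, 5 were higher, *COL1A2*, *LUM*, *COL1A1*, *COL3A1* and *THY1* (log2 fold changes of 1.32, 0.98, 0.55, 0.44 and 0.33), and none was lower. *PDGFRA* had -0.21 and was not called. Endothelial markers summed to between 0.172 and 0.196 RPKM against between 0.0421 and 0.107 RPKM, with *PECAM1* listed at 0 in all libraries. Most of this was 1 gene, *TEK*, with 14, 21 and 21 reads against 10, 5 and 13. It reached the level needed for testing only through the FN1 3′-UTR libraries and was not called (limma, adjusted p = 0.105). Leukocyte markers summed to between 2.93 and 3.61 RPKM, and the groups overlapped. The part of these shifts in the results below was not tested.

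Of the 10 genes, 6 had higher expression in the HGC27-FN1 3′-UTR cells (adjusted p under 0.05) and none was lower. Because the 10 genes were chosen with earlier results of these data known, the shares of all genes given beside them are a description only. Over all 23299 genes tested with limma, 5.62% were higher and 7.36% lower at that threshold, which is 1310 and 1715 genes. With median-ratio scaling of the libraries that balance turned, to 1696 higher and 1330 lower, while the same count of 6 higher and none lower held for the 10 genes. The genes that rose were *SPRY4*, *SPRED2*, *DUSP4*, *DUSP6*, *ETV4* and *ETV5*, and all but *SPRED2* also had a log2 fold change above 1, a size that 1.65% of all tested genes reached in the same direction with an unadjusted P under 0.05 and 0.815% in the other. The groups did not overlap, with the FN1 3′-UTR libraries above, for 8 of the 10 genes, against 14.3% of all tested genes, and another 21.7% of these were apart with the control libraries above. *DUSP5* was too low to be tested. *SPRY4* and *DUSP6* reached the minimum level for testing only through the FN1 3′-UTR libraries, so for them a difference was built into the filter. *DUSP4* reached it in the FN1 3′-UTR libraries but, of the control libraries, only in replicate 2 (0.139 RPKM). It would not have been tested without the FN1 3′-UTR libraries either, so the filter favoured a difference for it too. The remaining genes that rose were *SPRED2*, *ETV4* and *ETV5*.

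The genes split by level and by size of change. The 4 genes with the highest control levels were *SPRED2*, *SPRY2*, *SPRY1* and *SPRED1*, and their mean RPKM differed between the groups by factors of 1.29, 1.08, 1.10 and 1.22. The next 5, *ETV5*, *ETV4*, *DUSP4*, *DUSP6* and *SPRY4*, had control means of at most 0.299 RPKM, and their means differed by factors of 5.47, 5.38, 4.26, 6.11 and 21.5. The factor of *SPRY4* rests on 3, 1 and 3 control reads, at or under the detection floor, and its size is uncertain. The summed level of the 10 genes was 12.5, 12.6 and 13.0 RPKM in the FN1 3′-UTR libraries and 7.82, 8.24 and 8.44 RPKM in the control libraries, a ratio of 1.55. With 3 libraries per group, the smallest two-sided p of an exact permutation test is 0.1, which that sum and 8 of the single genes reached.

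**Figure D1:**
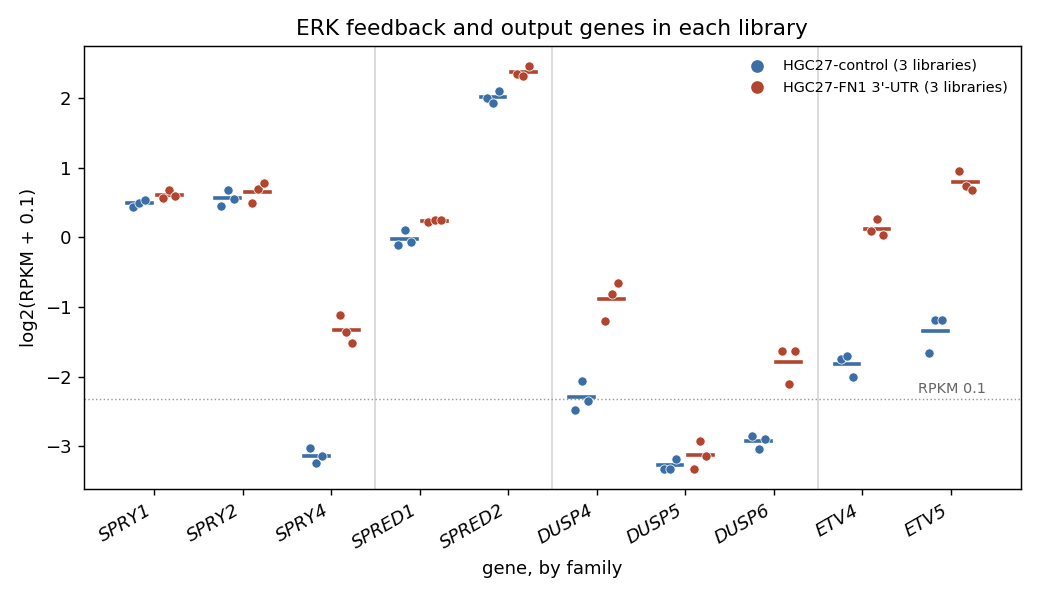
Level of each of the 10 genes in each library, as log2(RPKM + 0.1) on the vertical axis, with control libraries in blue, FN1 3′-UTR libraries in red, a point per library and a bar at the mean of 3. *SPRY4*, *DUSP4*, *DUSP6*, *ETV4* and *ETV5* show gaps between the groups, while the points of *SPRY2* and *DUSP5* overlap, and the dotted line marks 0.1 RPKM.

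Among the Sprouty genes, *SPRY4* rose from control values at or under the detection floor, while *SPRY1* and *SPRY2* were not called. *SPRY4*, a Sprouty inhibitor of receptor-driven RAS and RAF activation, lies on GRCh38 at chr5:142310427-142326455 on the reverse strand, with 5930 nucleotides of exons. It had 35, 42 and 43 reads in the FN1 3′-UTR libraries, or 0.361, 0.290 and 0.248 RPKM. In the control libraries it had 3, 1 and 3 reads, or 0.0227, 0.00547 and 0.0137 RPKM. Every FN1 3′-UTR library was thus far above every control library, with a log2 fold change of 1.80 (SE 0.22, limma, Benjamini-Hochberg adjusted p = 0.0064). Because the control values rest on 7 reads in all, the ratio of pooled reads scaled to depth, 120 reads against 7, is given with its exact 95% interval, 22.1 (10.4 to 56.1), which covers counting error only. The log2 fold change of *SPRY4* depends on the pseudocount and lay between 0.36 and 4.26 over the 12 alternatives that tested it, all with a limma adjusted p of at most 0.0400. In all of these but the fit without a filter, only the FN1 3′-UTR libraries brought *SPRY4* past the filter. Genes that lie within its span had at most 5 reads in any library and share none of its exon bases.

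*SPRY1* and *SPRY2* encode the Sprouty proteins that made up most of the family's transcript in both groups. *SPRY1* (chr4:123396795-123403760, forward strand) was at 1.39, 1.50 and 1.41 RPKM in the FN1 3′-UTR libraries and at 1.25, 1.31 and 1.36 RPKM in the control libraries. The groups did not overlap, yet the gap was small, with a log2 fold change of 0.12 (95% confidence interval -0.06 to 0.30, limma, Benjamini-Hochberg adjusted p = 0.330). *SPRY2* (chr13:80335976-80340951, reverse strand) was at 1.31, 1.52 and 1.62 RPKM in the FN1 3′-UTR libraries and at 1.27, 1.51 and 1.37 RPKM in the control libraries. Its groups overlapped, with a log2 fold change of 0.10 (95% confidence interval -0.16 to 0.36, limma, Benjamini-Hochberg adjusted p = 0.616). These intervals leave room for changes of up to 0.30 and 0.36 on the log2 scale. The ratio of *SPRY4* to *SPRY2* was 0.276, 0.190 and 0.153 in the FN1 3′-UTR libraries and 0.0179, 0.00363 and 0.00998 in the control libraries, without overlap, but the control ratios rest on 3, 1 and 3 reads of *SPRY4*. The ratio of *SPRY1* to *SPRY2* changed by 0.03 on the log2 scale (exact permutation test, two-sided, p = 1). The summed Sprouty level, of which *SPRY4* is a minor part, went from 2.54, 2.82 and 2.74 RPKM in the control libraries to 3.06, 3.31 and 3.28 RPKM in the FN1 3′-UTR libraries. That is a ratio of 1.19 without overlap (exact permutation test, two-sided, p = 0.1, the smallest possible). Although a minor part of the level, *SPRY4* gave the largest share of this rise. It went from at most 0.0227 RPKM in any control library to at least 0.248 RPKM in any FN1 3′-UTR library. The difference in the sum thus rests largely on *SPRY4*, which passed the filter only through the FN1 3′-UTR libraries. The sum of *SPRY1* and *SPRY2* alone was not tested. *SPRY3*, the remaining Sprouty gene, did not reach the minimum for testing, with between 0.0570 and 0.145 RPKM in any library.

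Of the SPRED genes, which encode membrane-bound relatives of Sprouty that restrain RAS and RAF, *SPRED2* rose and *SPRED1* was not called. *SPRED2* (chr2:65310851-65432637, reverse strand) was the most abundant of the 10 genes in both groups. It was at 4.98, 4.89 and 5.42 RPKM in the FN1 3′-UTR libraries and at 3.92, 3.73 and 4.21 RPKM in the control libraries, with between 420 and 815 reads per library. The groups did not overlap, and the log2 fold change was 0.36 (SE 0.065, limma, Benjamini-Hochberg adjusted p = 0.0193). That call was lost without FN1 3′-UTR replicate 1, FN1 3′-UTR replicate 3, control replicate 1 or control replicate 2 (limma, adjusted p = 0.0587, 0.0558, 0.0571 and 0.0737), while the log2 fold change stayed between 0.32 and 0.40. *SPRED1* (chr15:38252326-38357249, forward strand) encodes the SPRED protein whose loss causes Legius syndrome, a RASopathy. It was at 1.07, 1.09 and 1.09 RPKM in the FN1 3′-UTR libraries and at 0.824, 0.978 and 0.860 RPKM in the control libraries. Its groups did not overlap either, with a log2 fold change of 0.26 (95% confidence interval 0.03 to 0.49, limma, Benjamini-Hochberg adjusted p = 0.124). The ratio of *SPRED2* to *SPRED1* changed by 0.10 on the log2 scale (exact permutation test, two-sided, p = 0.6), so a difference in response between the paralogs was not shown. *SPRED3* was at between 0.0730 and 0.168 RPKM and had a log2 fold change of -0.24 (limma, Benjamini-Hochberg adjusted p = 0.547). The genes whose pattern over the 6 libraries was closest to that of *SPRED2*, among 14649 genes with a mean of at least 1 RPKM, were *ADGRA2*, *CORO1C* and *MAD2L1*, at Euclidean distances of 0.105, 0.241 and 0.271 between centred and scaled log2 values.

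The dual-specificity phosphatases dephosphorylate both the threonine and the tyrosine that activate a MAP kinase. Among the 3 chosen here, *DUSP4* and *DUSP6* rose from low levels and *DUSP5* was near 0 in every library. *DUSP4*, a nuclear phosphatase induced by ERK, lies at chr8:29333064-29350668 on the reverse strand. It had 40, 83 and 114 reads in the FN1 3′-UTR libraries, or 0.337, 0.468 and 0.538 RPKM, and 13, 31 and 26 reads in the control libraries, or 0.0802, 0.139 and 0.0967 RPKM. The lowest FN1 3′-UTR library was thus above the highest control library. Its log2 fold change was 1.41 (SE 0.22, limma, Benjamini-Hochberg adjusted p = 0.0126), and the ratio of pooled reads scaled to depth was 4.36 (exact 95% interval 3.33 to 5.78). The call was lost without FN1 3′-UTR replicate 2 (limma, adjusted p = 0.0526) and stood in the other 5 fits that left out 1 library.

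*DUSP6* encodes the cytoplasmic phosphatase with high selectivity for ERK, and it is one of the transcripts most often used as a gauge of ERK activity. It lies at chr12:89347232-89353271 on the reverse strand. It had 17, 15 and 30 reads in the FN1 3′-UTR libraries, or 0.224, 0.133 and 0.222 RPKM, and 4, 3 and 6 reads in the control libraries, or 0.0387, 0.0210 and 0.0350 RPKM. All FN1 3′-UTR values were above all control values, but they rest on few reads. The log2 fold change was 1.14 (SE 0.25, limma, Benjamini-Hochberg adjusted p = 0.0318), and the ratio of pooled reads scaled to depth was 6.15 (exact 95% interval 3.34 to 12.2). The call was lost in each of the 6 fits that left out 1 library. Without FN1 3′-UTR replicates 1, 2 and 3 the limma adjusted p was 0.107, 0.0572 and 0.107, and without control replicates 1, 2 and 3 it was 0.0750, 0.111 and 0.0867. A further limit is a gene listed by its clone name on the opposite strand, which shares 1875 exon bases with *DUSP6* and had 13, 8 and 22 reads in the FN1 3′-UTR libraries against 1, 3 and 2 in the control libraries. Whether the counting used the strand is not given in the sources used here, and the reads of this pair cannot be told apart if it did not.

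*DUSP5* (chr10:110497838-110511544, forward strand) encodes a nuclear phosphatase that also anchors ERK. It had 0, 2 and 1 reads in the FN1 3′-UTR libraries and 0, 0 and 1 reads in the control libraries. Both groups were at or under the floor, so no fold is given, and a difference in *DUSP5* was not detectable at this depth. The ratio of *DUSP4* to *DUSP6* changed by 0.27 on the log2 scale (exact permutation test, two-sided, p = 0.4).

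*DUSP4* and *DUSP6* rose, but the summed level of the MAP kinase phosphatases overlapped between the groups. Other family members were far more abundant, and their shifts went both ways. The 10 MAP kinase phosphatase genes listed summed to 25.9, 25.5 and 27.3 RPKM in the FN1 3′-UTR libraries and to 24.9, 26.8 and 26.5 RPKM in the control libraries (exact permutation test, two-sided, p = 0.9). *DUSP9*, a cytoplasmic ERK phosphatase related to *DUSP6*, was the most abundant, at 9.89, 9.04 and 10.2 RPKM in the FN1 3′-UTR libraries and 11.0, 12.4 and 12.4 RPKM in the control libraries. It fell, by 0.29 on the log2 scale (limma, Benjamini-Hochberg adjusted p = 0.0409), a call that stood in 1 of 6 fits that left out 1 library (limma, adjusted p from 0.0355 to 0.136). The ratio of *DUSP9* to *DUSP6* was 44.1, 68.2 and 46.2 in the FN1 3′-UTR libraries and 284, 592 and 355 in the control libraries. The control ratios rest on 4, 3 and 6 reads of *DUSP6*, which passed the filter only through the FN1 3′-UTR libraries. This ratio therefore largely restates the difference in *DUSP6*, with the limits given for that gene. The summed level of *DUSP6*, *DUSP7* and *DUSP9*, the cytoplasmic ERK phosphatases, was 12.7, 11.3 and 13.1 RPKM against 13.1, 14.6 and 15.1 RPKM, a ratio of 0.868 (exact permutation test, two-sided, p = 0.2).

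**Figure D2:**
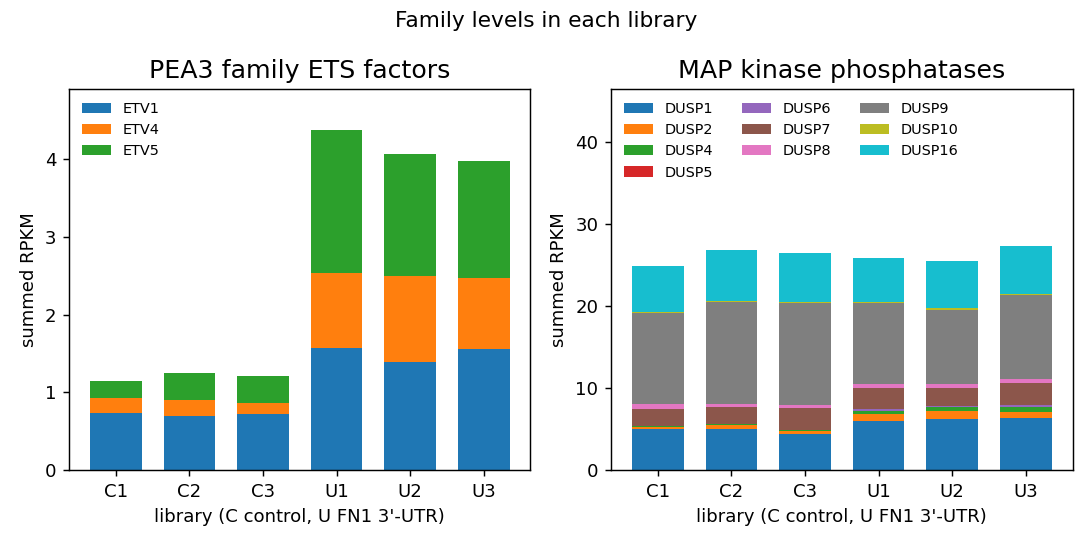
Stacked RPKM of the PEA3 family genes (left) and of 10 MAP kinase phosphatase genes (right) in each library, with C for control and U for FN1 3′-UTR libraries. The PEA3 stack is between 1.15 and 1.24 RPKM in control and between 3.97 and 4.37 RPKM in FN1 3′-UTR libraries, while the phosphatase stacks of the groups overlap and are mostly *DUSP9*, *DUSP16* and *DUSP1*.

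*ETV4* and *ETV5* rose with the lowest adjusted p-values of the 10 genes. *ETV4*, also known as PEA3, encodes an ETS factor downstream of ERK and lies at chr17:43527844-43579620 on the reverse strand. It was at 0.966, 1.10 and 0.921 RPKM in the FN1 3′-UTR libraries and at 0.199, 0.207 and 0.150 RPKM in the control libraries, from 57, 97 and 97 reads against 16, 23 and 20. The groups were far apart compared with the spread within them, and the log2 fold change was 1.95 (SE 0.15, limma, Benjamini-Hochberg adjusted p = 0.00134), and the ratio of pooled reads scaled to depth was 5.48 (exact 95% interval 4.11 to 7.41). *DHX8* on the opposite strand shares 68 exon bases with *ETV4* and had more reads in every library, at 1314, 1937 and 2367 against 1717, 2430 and 2768.

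*ETV5* encodes the ETS factor also called ERM and lies at chr3:186046308-186110318 on the reverse strand. It was at 1.84, 1.57 and 1.50 RPKM in the FN1 3′-UTR libraries and at 0.216, 0.341 and 0.340 RPKM in the control libraries, from 175, 222 and 254 reads against 28, 61 and 73. The lowest FN1 3′-UTR library was above the highest control library by a wide margin. The log2 fold change was 2.13 (SE 0.17, limma, Benjamini-Hochberg adjusted p = 0.00168), and the ratio of pooled reads scaled to depth was 5.18 (exact 95% interval 4.35 to 6.19). *DGKG* on the same strand shares 164 exon bases with *ETV5* and had 87, 124 and 128 reads against 98, 127 and 146. *ETV4*, *ETV5* and *SPRY4* kept an adjusted p under 0.05 from limma in each of the 6 fits that left out 1 library and in the 12 alternatives run for each gene. For *SPRY4*, which passed the filter only through the FN1 3′-UTR libraries, a difference was built in, so its calls are no separate support.

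*ETV1*, the third PEA3 factor, was not among the 10 genes and also rose, from 0.731, 0.695 and 0.719 RPKM in the control libraries to 1.56, 1.39 and 1.55 RPKM in the FN1 3′-UTR libraries (log2 fold change 0.97, limma, Benjamini-Hochberg adjusted p = 0.00246). The ratio of *ETV5* to *ETV1* was 1.18, 1.13 and 0.966 in the FN1 3′-UTR libraries and 0.296, 0.491 and 0.473 in the control libraries, without overlap (exact permutation test, two-sided, p = 0.1, the smallest possible). The ratio of *ETV4* to *ETV1* changed by 0.97 on the log2 scale (exact permutation test, two-sided, p = 0.1). In contrast, the ratio of *ETV5* to *ETV4* was 1.91, 1.42 and 1.63 against 1.09, 1.65 and 2.27, with overlapping groups (exact permutation test, two-sided, p = 0.6). *ETV5* made up between 18.9% and 28.1% of the summed PEA3 family level in the control libraries and between 37.7% and 42.2% in the FN1 3′-UTR libraries.

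**Figure D3:**
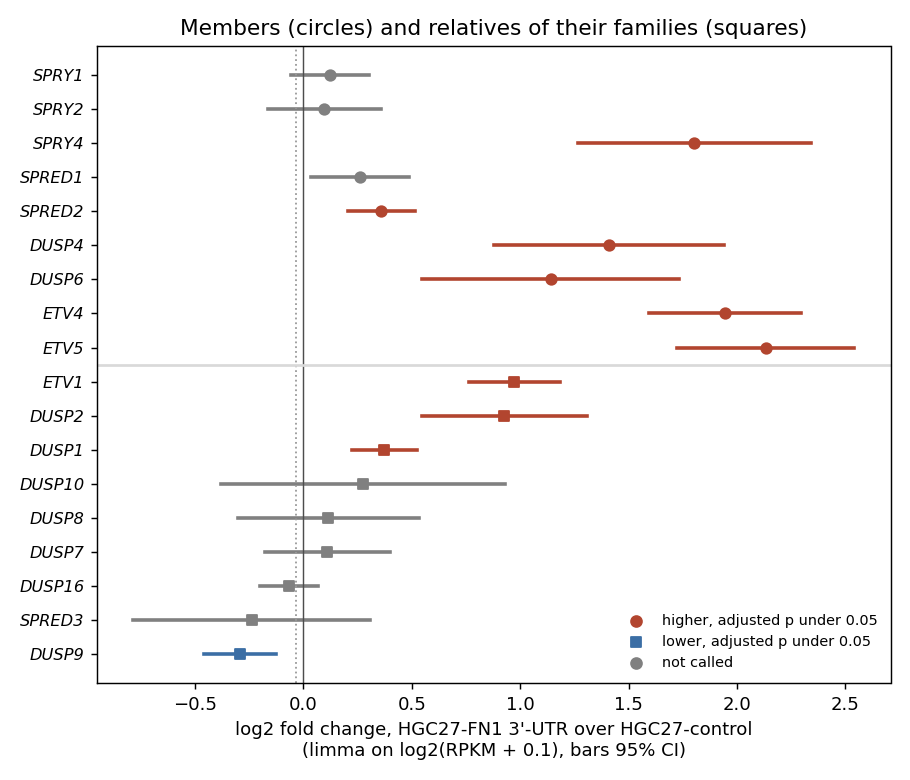
Log2 fold change of FN1 3′-UTR over control cells from limma, with 95% confidence intervals, for the 9 tested genes of the set (circles) and 9 tested relatives of the same families (squares). Red marks genes higher and blue genes lower at an adjusted p under 0.05, grey marks genes not called, and the dotted line is the median of all tested genes, -0.04; *ETV5*, *ETV4* and *SPRY4* lie farthest to the right and *DUSP9* is the only blue point.

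The order of the genes by level changed between the groups. In the control libraries it ran *SPRED2*, *SPRY2*, *SPRY1*, *SPRED1*, *ETV5*, *ETV4*, *DUSP4*, *DUSP6*, *SPRY4* and *DUSP5*, and the ranges of neighbours overlapped for *SPRY2* and *SPRY1*, for *DUSP6* and *SPRY4*, and for *SPRY4* and *DUSP5*. In the FN1 3′-UTR libraries it ran *SPRED2*, *ETV5*, *SPRY2*, *SPRY1*, *SPRED1*, *ETV4*, *DUSP4*, *SPRY4*, *DUSP6* and *DUSP5*. There the ranges overlapped for *ETV5* and *SPRY2*, for *SPRY2* and *SPRY1*, for *SPRED1* and *ETV4*, and for *DUSP4* and *SPRY4*. *ETV5* thus moved from a level below *SPRED1* to one level with *SPRY2*. *SPRED2* took between 45.3% and 50.1% of the summed level of the 10 genes in the control libraries and between 38.9% and 41.7% in the FN1 3′-UTR libraries, and *ETV5* took between 2.76% and 4.14% and then between 11.5% and 14.8%.

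The study tested miRNAs against the *FN1* 3′-UTR in reporter assays, so the 3′-UTRs of the 10 genes were searched for the 7-base matches to the seeds of 4 of them, let-7i-5p, miR-296-3p, miR-629-5p and miR-423-5p. The seed is bases 2 to 8 of a miRNA and is the part that pairs with a target. The mature sequences, from RefSeq on GRCh38.p14 with the seed in capitals, are shown for let-7i-5p, on which the study centred, and for the miRNAs with a match among the 10 genes.
let-7i-5p (chr12:62603691-62603712, forward strand): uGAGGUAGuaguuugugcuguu
miR-629-5p (chr15:70079427-70079447, reverse strand): uGGGUUUAcguugggagaacu
miR-423-5p (chr17:30117095-30117117, forward strand): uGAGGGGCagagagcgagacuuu

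For each gene, the protein-coding transcript with the longest 3′-UTR in GENCODE release 29 was used, and 12968 tested genes had a 3′-UTR there. The match to let-7i-5p (CTACCTC) occurred in 10.92% of these 3′-UTRs and in none of those of the 10 genes. The match to miR-296-3p (CAACCCT) occurred in 9.45% and likewise in none of the 10. The match to miR-629-5p (TAAACCC) occurred in 7.83% and, among the 10 genes, in *ETV5* alone. The match to miR-423-5p (GCCCCTC) occurred in 16.49% and, among the 10 genes, in *SPRY4* alone, at 2 sites. Their windows are shown on the transcript strand, which is the reverse strand of GRCh38, with the match in capitals.
ETV5 (chr3:186047364-186047387): ttaaatcttggacttTAAACCCta
SPRY4 upstream site (chr5:142313854-142313877): ttgaatgccttcccaGCCCCTCct
SPRY4 downstream site (chr5:142312069-142312092): tcagaacttcccaggGCCCCTCcc

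*ETV5*, with 2331 nucleotides, and *SPRY4*, with 3782 nucleotides, have 3′-UTRs longer than the median of 1327.5 nucleotides over the genes searched. The other genes that rose, *SPRED2*, *DUSP4*, *DUSP6* and *ETV4*, held no match to any of the 4 seeds. A match is a description of the sequence and says nothing about use of the site.

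Promoters were searched in the same way for motifs of factors at the end of the ERK pathway, on both strands, from 250 bases before to 50 bases after the start site. The RefSeq table (GRCh38.p14) held 10 promoters of 6 of the genes, namely *SPRY1*, *SPRY2*, *SPRY4*, *SPRED1*, *SPRED2* and *DUSP6*. The ETS motif CCGGAAG occurred in 10.26% of all 35116 promoters and in 1 of these 10, a promoter of *SPRY1*. For AP-1 the pattern TGANTCA was used, with any base at N, which is looser than TGACTCA or TGAGTCA. It occurred in 7.71% of all promoters and in 1 of the 10, a promoter of *SPRED2* that starts inside the gene. The match before that start site reads TGACTCA. The match after it reads TGAATCA and fits the looser pattern only, although it is labelled AP-1 below. The CRE motif TGACGTCA (1.85% of all promoters) and the Capicua octamers TGAATGAA (1.65%) and TGAATGGA (1.03%) occurred in none of the 10. These windows are shown because *SPRED2* rose and *SPRY1* did not pass the test, with the motif in capitals on the strand of the gene.
SPRY1 ETS match, 67 bases before the start (chr4:123398310-123398335, forward strand): cctccgcagCCGGAAGggggccgcgg
SPRED2 AP-1 match, 6 bases before the start (chr2:65366768-65366793, reverse strand): accctcggaTGACTCAtccggtacaa
SPRED2 AP-1 match, 34 bases after the start (chr2:65366729-65366754, reverse strand): tcaaggagacTGAATCAtatatgggg

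The promoter of *SPRY4* held none of these letters, and the promoter of *DUSP6* held none either. That says nothing about binding of the factors, whose sites can lie elsewhere.

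The other genes of the pathway were described as 7 lists with 93 genes, of which 85 were tested. Of these, 18 were higher and 8 lower, or 21.2% and 9.41%, against 5.62% and 7.36% of all tested genes. Their median log2 fold change was 0.08, against -0.04 over all tested genes. Of the 18 genes that were higher, 9 were in the list of other ERK output genes, and the list of the cascade itself had a median near 0. The lists were chosen with earlier results of these data known, so these shares are a description only. The share called also depends on level. When only the 14652 genes with a mean of at least 1 RPKM were fitted, 1212 were higher and 1861 lower, larger shares in both directions. The lists were not set against genes of like level.

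Among the 18 genes of the cascade from RAS to ERK, 17 were tested, 2 were higher and none lower, with a median of 0.03. *MAPK3*, which encodes ERK1, was at 5.80, 5.85 and 6.14 RPKM in the FN1 3′-UTR libraries and at 6.50, 6.84 and 7.55 RPKM in the control libraries, with a log2 fold change of -0.23 that was not called (limma, Benjamini-Hochberg adjusted p = 0.0657). The genes called were *YWHAZ*, a 14-3-3 protein that binds RAF, with a log2 fold change of 0.23, and *RRAS2*, a RAS-related GTPase, with 0.18 (limma, Benjamini-Hochberg adjusted p = 0.00535 and 0.0329). The call of *YWHAZ* stood in all 6 fits that left out 1 library and that of *RRAS2* in 1 of them.

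Of 11 tested adaptors and exchange factors, 1 was higher and 1 lower, with a median of 0.07. *GAB2*, a docking protein that recruits SHP2 to receptors, rose from 4.31, 4.77 and 4.95 RPKM in the control libraries to 8.37, 7.45 and 7.24 RPKM in the FN1 3′-UTR libraries (log2 fold change 0.70, limma, Benjamini-Hochberg adjusted p = 0.00447). *SOS1*, an exchange factor that activates RAS, fell by 0.33 on the log2 scale (limma, Benjamini-Hochberg adjusted p = 0.00633). Both calls stood in all 6 fits that left out 1 library.

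The 14 other negative regulators, among them RAS GTPase-activating proteins and ubiquitin ligases of receptors, had 1 gene higher and 2 lower, and their median log2 fold change was close to 0. *RASAL2*, a RAS GTPase-activating protein, had 0.27, *CBL*, a ubiquitin ligase of receptors, had -0.25, and *RASSF1*, a RAS-association domain protein, had -0.30 (limma, Benjamini-Hochberg adjusted p = 0.0276, 0.0368 and 0.0386). The calls of *RASAL2* and *CBL* stood in none of the 6 fits that left out 1 library and that of *RASSF1* in 1. None of these regulators changed by more than 1 on the log2 scale in either direction.

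Of 12 kinases and factors that ERK phosphorylates or acts through, such as RSK, MNK, MSK, ELK and SRF, none was higher and 1 was lower, with a median of 0.02. That gene was *RPS6KA2*, which encodes RSK3, at 0.245, 0.199 and 0.253 RPKM in the FN1 3′-UTR libraries and 0.473, 0.512 and 0.491 RPKM in the control libraries (log2 fold change -0.84, limma, Benjamini-Hochberg adjusted p = 0.0167). Its groups did not overlap, but the call was lost without FN1 3′-UTR replicate 2, control replicate 1, control replicate 2 or control replicate 3 (limma, adjusted p = 0.0534, 0.0516, 0.0786 and 0.0621).

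Of 13 listed FGF receptors, ligands and cofactors, 8 were tested, 2 were higher and 1 lower, with a median of -0.08. *FGF18*, a secreted ligand of FGF receptors, rose from 0.316, 0.343 and 0.408 RPKM in the control libraries to 1.02, 0.948 and 0.983 RPKM in the FN1 3′-UTR libraries (log2 fold change 1.25, limma, Benjamini-Hochberg adjusted p = 0.00312), and its call stood in all 6 fits that left out 1 library. The receptor gene *FGFR2* had a log2 fold change of 0.32, and *FGFRL1*, a receptor-like gene without a kinase domain, had -0.21 (limma, Benjamini-Hochberg adjusted p = 0.0172 and 0.0262), each with a call that stood in 1 of 6 such fits.

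The 14 other ERK output genes were the list with the most calls, 9 higher and 2 lower, with a median log2 fold change of 0.64, and 5 of them passed 1 on the log2 scale. Its 11 calls fell to between 6 and 8 when 1 library was left out, to 7 without FN1 3′-UTR replicate 1 or 2, to 6 without FN1 3′-UTR replicate 3 or control replicate 2, and to 8 without control replicate 1 or 3. *EGR1*, an immediate early zinc finger factor, rose from 0.499, 0.548 and 0.576 RPKM in the control libraries to 1.64, 1.60 and 1.47 RPKM in the FN1 3′-UTR libraries (log2 fold change 1.38, limma, Benjamini-Hochberg adjusted p = 0.00109). *IER3*, an early response gene whose product is an ERK substrate, rose from 4.33, 4.91 and 5.60 RPKM to 12.0, 10.9 and 10.5 RPKM (log2 fold change 1.16, limma, Benjamini-Hochberg adjusted p = 0.00218). *LIF*, a cytokine of the interleukin 6 family, rose by 1.14 on the log2 scale (limma, Benjamini-Hochberg adjusted p = 0.00633). These calls stood in all 6 fits that left out 1 library.

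*FOS* and *FOSL1*, which encode AP-1 subunits, had log2 fold changes of 1.02 and 1.01 (limma, Benjamini-Hochberg adjusted p = 0.0257 and 0.0379). Both were low, at most 0.683 RPKM in any library. The call of *FOS* stood only without control replicate 3 (limma, adjusted p = 0.0493) and that of *FOSL1* only without FN1 3′-UTR replicate 2 (limma, adjusted p = 0.0440), and without any other library they lay between 0.0538 and 0.114. *EPHA2*, *MAFF*, *HMGA2* and *PLAUR* made up the rest of the 9 genes that were higher. The calls of *EPHA2* and *PLAUR* stood in all 6 fits that left out 1 library, that of *HMGA2* in 2 of them and that of *MAFF* in 1.

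Not every output gene rose. *MYC*, a growth regulator, fell by 0.35 on the log2 scale, from 97.4, 102 and 109 RPKM in the control libraries to 81.1, 78.4 and 81.9 RPKM in the FN1 3′-UTR libraries (limma, Benjamini-Hochberg adjusted p = 0.00733). *SPHK1*, a sphingosine kinase gene, fell by 0.32 (limma, Benjamini-Hochberg adjusted p = 0.0332), a call that stood in 1 of 6 fits that left out 1 library. *CCND1*, which encodes cyclin D1, was at 34.4, 34.2 and 34.4 RPKM in the FN1 3′-UTR libraries and at 33.9, 34.7 and 34.8 RPKM in the control libraries, with a log2 fold change of -0.01 (95% confidence interval -0.07 to 0.05, limma). The direction of a value so close to 0 depends on the scaling of the libraries. *PHLDA1*, an early response gene, had a log2 fold change of 0.58 and was not called (limma, Benjamini-Hochberg adjusted p = 0.117).

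**Figure D4:**
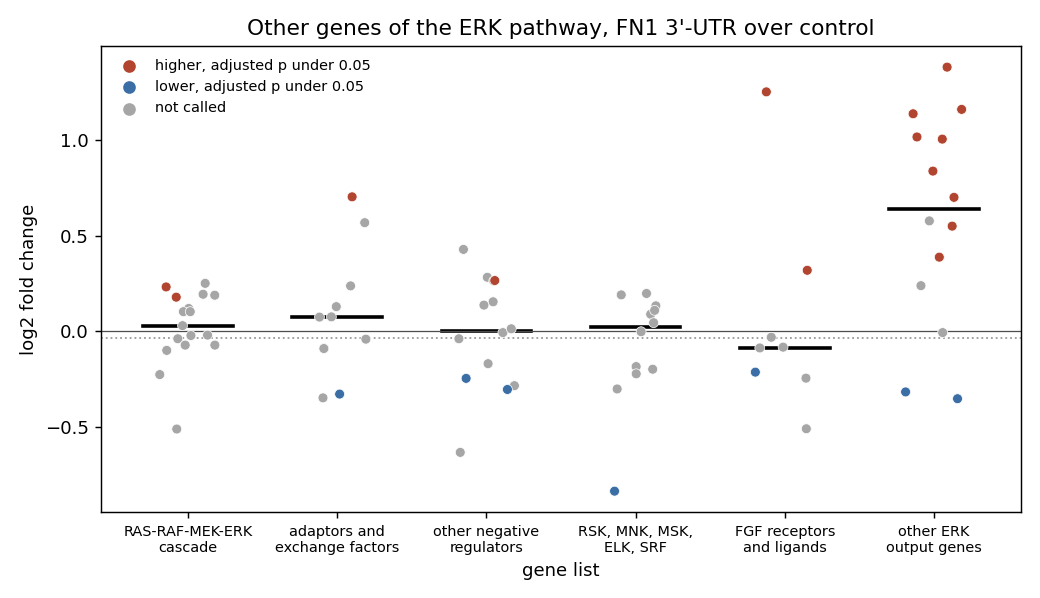
Log2 fold change of each tested gene in 6 of the lists of other ERK pathway genes, FN1 3′-UTR over control cells, with the median of each list as a black bar and the median of all tested genes, -0.04, as a dotted line. The list of other ERK output genes has a median of 0.64 and 9 red points, for genes higher at an adjusted p under 0.05, while the other medians lie between -0.08 and 0.07.

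Among the relatives of the 4 families, 9 of 10 genes were tested, 3 were higher and 1 lower, with a median of 0.12. Besides *ETV1* and *DUSP9*, these were *DUSP2* and *DUSP1*, which encode inducible nuclear MAP kinase phosphatases. *DUSP2* rose from 0.324, 0.504 and 0.391 RPKM in the control libraries to 0.854, 0.911 and 0.798 RPKM in the FN1 3′-UTR libraries (log2 fold change 0.93, limma, Benjamini-Hochberg adjusted p = 0.0166). Its call was lost without FN1 3′-UTR replicate 1, FN1 3′-UTR replicate 2 or control replicate 3 (limma, adjusted p = 0.0588, 0.0624 and 0.0551). *DUSP1* had a log2 fold change of 0.37 (limma, Benjamini-Hochberg adjusted p = 0.0156), with a call that stood in 3 of 6 such fits. The ratio of *DUSP4* to *DUSP1* changed by 1.04 on the log2 scale without overlap of the groups (exact permutation test, two-sided, p = 0.1, the smallest possible).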

How the data were processed

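The 6 RNA-seq libraries were grouped by their labels. Per the submitters' processing notes, reads were trimmed with Trimmomatic 0.36, and the notes name STAR 2.5.3a, featureCounts of Subread 1.5.1 and GRCh38. The kit was stranded, while the strand setting of the counting and the annotation release are not given in the sources used here. The authors deposited RPKM per gene and library. Multiplied by gene length and depth, 100% of values came out whole within 0.01 read, which gave the reads and the depth of each library. Floors and intervals cover counting error only. Same-group libraries differed by more than sampling noise (chi-square per gene from 2.665 to 6.185).

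Genes at 0.1 RPKM or more in at least 3 libraries were tested with limma 3.58.1 (R 4.3.3) on log2(RPKM + 0.1), group as the only term, a trend in the prior variance, two-sided, with Benjamini-Hochberg adjustment over 23299 genes. A gene was called at an adjusted p under 0.05. A second rule took the cut-offs of the study, more than 1 on the log2 scale in either direction with P under 0.05 before adjustment. Single values were compared by exact permutation. The fit was also run on simulated reads with the same spread for all genes. There only genes above a minimum read level were changed, so the simulation does not bear on genes as low as *DUSP5* and *DUSP6*. The 10 genes and the lists were chosen with earlier results of these data known. Every one of the 10 was described. From each list, genes called with an absolute log2 fold change above 0.5 were named, at most 5 per list, besides *MAPK3*, *CCND1*, *PHLDA1* and a further gene that is not reported here. Other list genes were named after their values were seen. *KL*, *TFF2*, *TFF3* and *CD3E* matched no row by symbol and were not analysed here. Alternatives were the pseudocount, the filter, median-ratio scaling, the replicate number as a block, each library left out and, added after seeing the data, limma's voom on the recovered reads. Gene positions are those of the tables, and match GENCODE release 29 for the 10 genes. Promoters of *DUSP4*, *DUSP5*, *ETV4* and *ETV5* were not analysed here. Python 3.11.15, numpy 2.4.6, pandas 2.3.3, scipy 1.17.1 and matplotlib 3.10.9 were used.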

Additional observations from a re-analysis of the deposited data

How the results depend on the processing

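Of the 10 genes, 6 were higher, and between 4 and 5 were when 1 library was left out, 5 when replicate number entered as a block, and 7 with voom on the recovered reads, an alternative chosen after seeing the data. With a mean RPKM of at least 1, only 3 of the 10 were tested, and 1 was higher and 0 passed the fold and P criteria, against 5. With a pseudocount of 1, 1 passed those criteria. Over all genes, 1310 were higher and 1715 lower. Median-ratio scaling turned this to 1696 and 1330, the block gave 564 and 598, voom gave 2055 and 3229, and leaving out 1 library gave between 462 and 865 higher and between 434 and 1003 lower. Of the pathway lists, 26 genes were called, 13 with the block, 45 with voom and between 13 and 18 with 1 library left out. For the other ERK output genes alone, 11 were called, 6 with the block, 12 with voom and between 6 and 8 with 1 library left out. The deviations of same-numbered replicates from their group means correlated at 0.0024, 0.021 and 0.010 across genes, and although each correlated best with its own number, the numbers were not taken as pairs. Under the block, *DUSP6* (limma, adjusted p = 0.0820) was the member of the 10 that lost its call, with no other of the 10 changed. *SPRED1* was called by voom alone (limma, adjusted p = 0.0239). The log2 fold change of *CCND1* turned to 0.0281 under median-ratio scaling. With 1 library left out it lay between -0.0182 and 0.0012, above 0 without control replicate 3, and it was never called. For the 10 genes, 98 of the gene values under alternatives kept direction and call, 12 lost and 1 gained the call. The causes were not tested. The count-model tests planned for the recovered reads were not run. Depth limits *DUSP5*, *DUSP6* and *SPRY4*, which had 13 or fewer reads in the control libraries together.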
